A study of Mus musculus with 6 samples.

Results

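Annexins, S100 proteins and galectins were followed as 9 genes in RNA that co-precipitated with LARP1 from mouse dorsal root ganglia (DRG), where the cell bodies of sensory neurons lie. The annexins were Anxa1 (ENSMUSG00000024659), Anxa2 (ENSMUSG00000032231) and Anxa5 (ENSMUSG00000027712). The S100 genes were S100a4 (ENSMUSG00000001020), S100a6 (ENSMUSG00000001025), S100a10 (ENSMUSG00000041959) and S100a11 (ENSMUSG00000027907). The galectins were Lgals1 (ENSMUSG00000068220) and Lgals3 (ENSMUSG00000050335). They were taken by Ensembl gene identifier, whatever their values, and all 9 were among the 16976 identifiers of the count table, of which 13236 had a count. The groups were uninjured DRG and DRG after sciatic nerve injury, both from wild-type mice and both precipitated with an anti-LARP1 antibody. The labels give no age, sex, time after injury or number of animals. Each group had 3 libraries of amplified nanopore cDNA, with totals of 116186 to 116608 counts for the uninjured and 211337 to 211879 for the injured ones.

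Each group's 3 libraries were treated as 1 sample, since they agreed nearly within counting noise. Relative to that noise, their variance was 1.16 for uninjured and 1.12 for injured libraries, over genes that reached 15 counts. Nothing in the labels says that they came from separate animals. The values below are therefore those of 1 summed sample per group, with 349027 uninjured and 634615 injured counts, and the difference between groups has no replicate check and cannot be told apart from a batch in which a group was prepared. Levels are CPM, counts scaled to a group total of 1e+06, with 95% exact Poisson intervals. Ratios are injured over uninjured CPM with 95% exact Clopper-Pearson intervals. Both kinds of interval cover counting error of reads only. PCR reads without molecular identifiers are not independent molecules, so the intervals can be too narrow even for counting error of molecules. For ratios a count of 0 was replaced by a floor of 3 counts, or 8.60 CPM in the uninjured and 4.73 CPM in the injured group. No total RNA or control precipitate was analysed here, so a level in the precipitate mixes RNA amount in the tissue with binding. In such bulk samples fewer cells of a type and less RNA per cell also cannot be told apart. Markers of neurons, glia, macrophages and fibroblasts were not analysed here, because their identifiers were not paired with symbols, so the tissue label was not checked against them.

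Annexins are calcium-dependent proteins that bind the inner face of membranes, and S100 proteins are small calcium sensors that bind annexins and other partners. Anxa2 pairs with S100a10 and Anxa1 can pair with S100a11. Galectins bind sugars on glycoproteins and act both inside and outside cells. In peripheral nerve these genes are known from neurons, Schwann cells, macrophages and fibroblasts. LARP1 binds mRNAs that begin with a terminal oligopyrimidine tract, a C at the first base followed by a run of C or T.

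The first bases of the transcripts are shown because such a tract would lie there. RefSeq promoter entries of build GRCm38.p6 were at hand for 7 of the 9 genes. The counts were made on GRCm39, so these positions are not those of the counts. Each line below gives 10 bases before the annotated start and 20 from it on, 5′ to 3′, with the first transcribed base in capitals.
Anxa1, chr19:20390652-20390681, minus strand: tccacttccaGtctgaaaccatctgagcag
Anxa2, chr9:69453673-69453702, plus strand: gccccacccaGcccagccgggctgctccgc
Anxa5, chr3:36475868-36475897, minus strand: ggcgtgtcctGatgggggcgcggcccgggc
S100a4, chr3:90603760-90603789, plus strand: ggctctccccAaacctctctattcagcact
S100a6, chr3:90612884-90612913, plus strand: agcacacaagCcagagtttcgagtcacgtg
S100a11, chr3:93520486-93520515, plus strand: ccccgaccgcCactcctgtcccagccaccg
Lgals3, chr14:47373850-47373879, plus strand: gccccgccctGggagggcgggcccggggaa
At the annotated start, 0 of these 7 had a C followed by at least 4 C or T, against 2.51% of all 32851 promoter entries. S100a6 and S100a11 began with C, followed by a run of C or T that ended after 2 and 1 bases counted from the start. An annotated start can lie some bases off the one used in a tissue.

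Together the 9 genes held 0.525% of the uninjured counts (95% Wilson interval 0.501% to 0.549%) and 0.690% of the injured counts (0.670% to 0.711%). By library the share was 0.501%, 0.535% and 0.539% without injury and 0.657%, 0.707% and 0.707% with injury, so the groups did not overlap. The ratio of the shares was 1.32 (1.25 to 1.39). The 3 most counted genes, S100a6, Anxa2 and S100a10, had a summed ratio of 1.22 (1.15 to 1.29). The other 6 had a summed ratio of 3.37 (2.66 to 4.31), from 232 to 782 CPM. The rise was thus unequal within the set: those 6 genes made up 81 of its 1832 uninjured counts and 496 of its 4382 injured counts. The 6 were unequal too. Lgals3 gave 38 of their 81 uninjured counts and had a ratio of 1.24 (0.840 to 1.87), so the summed ratio does not describe each gene.

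Each of the 9 genes had a higher level in the injured group, and in 8, all but Lgals3, the interval of the ratio lay above 1. Of the 9, 5 were at least 2-fold higher, with Anxa1 at its bound, and 8 did not overlap between the groups' libraries. The exact lower limit of Anxa1 was 1.82, which is below 2. Among the 7778 genes with at least 14 counts over the 6 libraries, the lowest sum among these 9 genes, 26.1% were at least 2-fold higher and in 28.5% every injured library lay above every uninjured one. Of the 9 genes, 4 had ratios of 1.37 or less and 4 of 3.24 or more. The remaining gene, Anxa1, is known only by its bound of 2.57, so the set has no measured median. The median ratio over those 7778 genes was 1.14, so most of them were higher on this scale too. Their shares were not matched to the 9 genes by count, and with many counts even a small ratio can separate the libraries. In edgeR's quasi-likelihood test, fitted on 3158 genes, 5 of the 9 genes were called higher at a Benjamini-Hochberg threshold of 0.05, against 24.9% of all genes tested. These were Anxa2, Anxa5, S100a6, S100a11 and Lgals1. Anxa5, S100a11 and Lgals1 entered the test through the injured libraries alone, where they were high, so the count is a description. S100a10 and Lgals3 did not pass, and Anxa1 and S100a4 were below its filter on low counts. None of the 7 tested was called lower (22.1% of all genes were), nor by DESeq2 or limma-voom. All 7 had a higher level in the injured group, so none could be called lower and this adds no support. The edgeR test is one of reads from 2 samples and says nothing of the spread between animals. With an assumed coefficient of variation between animals of 0.2, the calls left were Anxa5, S100a11 and Lgals1, and with 0.4 S100a11. These settings were chosen after the data were seen. The genes left all entered the test through the injured libraries alone, so the calls left are a description too.

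**Figure D1:**
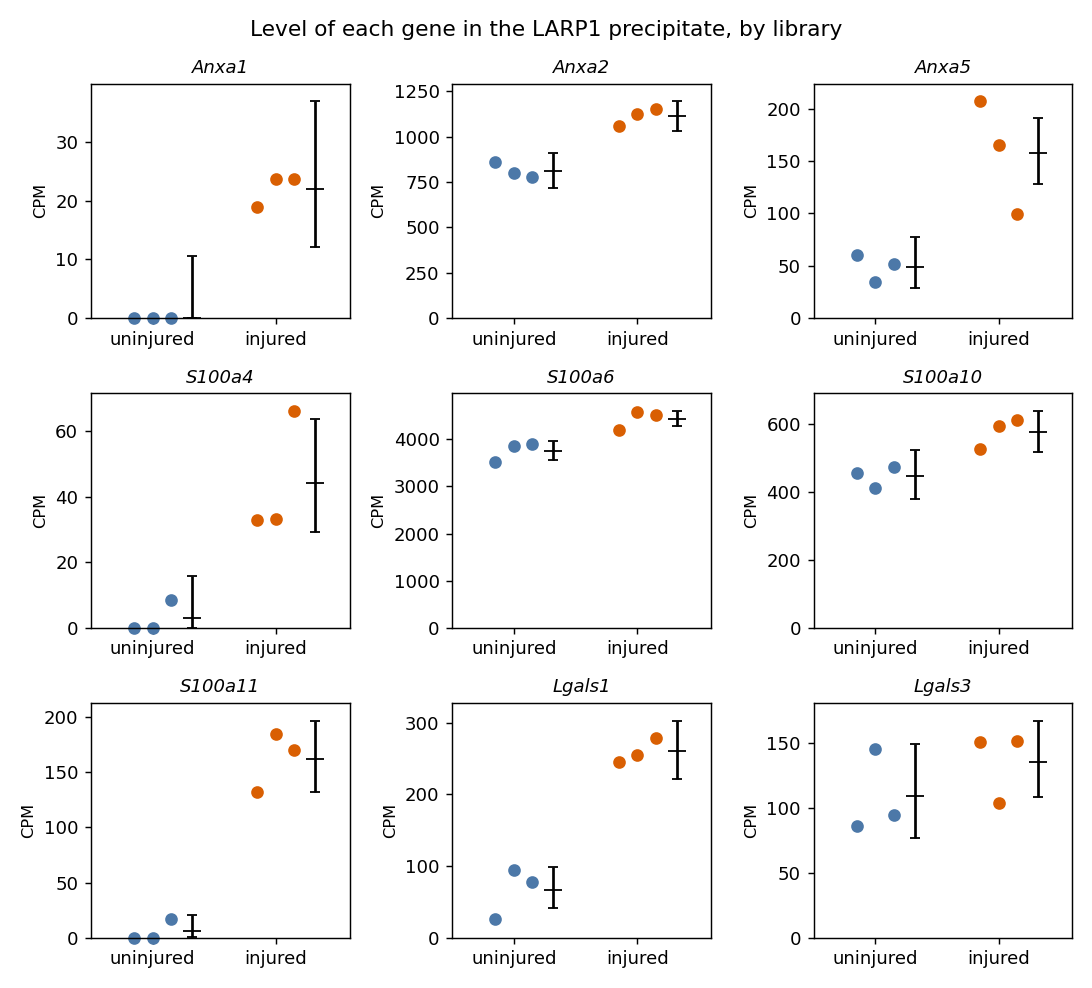
Level in CPM (vertical axes, each from 0) of the 9 genes in the 3 uninjured and 3 injured libraries (points); the horizontal mark and bar beside each group give the level of the summed group with its 95% exact Poisson interval. In 8 genes all injured points lie above all uninjured ones, and in Lgals3 the second uninjured library lies among the injured ones.

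Anxa2 was the most counted annexin. It encodes a membrane- and actin-binding protein that works in exocytosis and at the cell surface. It was counted 100, 93 and 90 times in uninjured libraries and 224, 238 and 243 times in injured libraries. Its level was 811 CPM (719 to 911) in uninjured and 1111 CPM (1030 to 1196) in injured DRG. The ratio was 1.37 (1.19 to 1.58). All injured libraries lay above all uninjured ones. A higher ratio was found for 34.6% of the tested genes.

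Anxa5 binds phosphatidylserine, and the protein is widely used to label dying cells. It had 7, 4 and 6 counts without injury and 44, 35 and 21 with injury. The injured libraries were spread more widely than in the other genes, with a variance 4.005 times counting noise, the third being lowest. Its level was 48.7 CPM (28.4 to 77.98) in uninjured and 158 CPM (128 to 192) in injured DRG, a ratio of 3.24 (1.92 to 5.77). Leaving out 1 library at a time gave ratios of 2.72 to 3.83. The lowest came without the first and the highest without the third injured library.

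Anxa1 encodes a mediator that dampens inflammation. It had 0 counts in each uninjured library and 4, 5 and 5 in the injured libraries. Its injured level was 22.1 CPM (12.1 to 37.0). Against the floor of 3 counts over the uninjured group it was 2.57-fold higher, which is taken as its bound. The exact lower limit of the ratio, with counting error of both groups, was lower, at 1.82. Without any 1 uninjured library the floor stands on fewer counts, and the bound was 1.71. At this depth its uninjured level can only be placed below an upper limit. By the exact Poisson interval that limit was 10.6 CPM, above the floor of 8.60 CPM.

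S100a6 encodes calcyclin, a calcium sensor found in many neurons and glia. It gave 71.6% of the counts of the 9 genes without injury and 64.3% with injury. These are shares of counts and are not adjusted for transcript length. S100a6 was counted 409, 451 and 452 times in uninjured libraries and 890, 970 and 956 times in injured libraries. The first library of each group was the lowest. Its level was 3759 CPM (3558 to 3968) in uninjured and 4437 CPM (4275 to 4604) in injured DRG. The ratio was 1.18 (1.11 to 1.26), the smallest of the 9. It made up 41.0% of the set's difference in CPM all the same, 678 of 1656 CPM. The call was lost without the first uninjured library, where the ratio was 1.14. Of the tested genes, 42.6% had a higher ratio.

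S100a10, also called p11, does not respond to calcium and is the partner of Anxa2. It also brings the nociceptor sodium channel Nav1.8 to the membrane. It had 53, 48 and 55 counts without injury and 111, 125 and 129 with injury. Its level was 447 CPM (380 to 523) in uninjured and 575 CPM (518 to 637) in injured DRG, a ratio of 1.29 (1.06 to 1.56). The libraries did not overlap, but the gene did not pass the threshold of the test on its TMM scale. It passed with library totals in place of TMM factors, without a filter, with thinned injured libraries and without the first injured library.

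The proportion of the partners Anxa2 and S100a10 was compared within each library. By library there were 1.89, 1.94 and 1.64 Anxa2 counts per S100a10 count without injury and 2.02, 1.90 and 1.88 with injury. In the summed groups the values were 1.81 (1.49 to 2.22) and 1.93 (1.70 to 2.20), and their intervals overlapped. S100a6 per S100a10 was 8.41 (7.12 to 9.99) and 7.72 (6.92 to 8.63), and S100a6 per Anxa2 was 4.64 (4.07 to 5.29) and 3.99 (3.68 to 4.34). Overlapping intervals do not show that the proportions were equal.

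**Figure D2:**
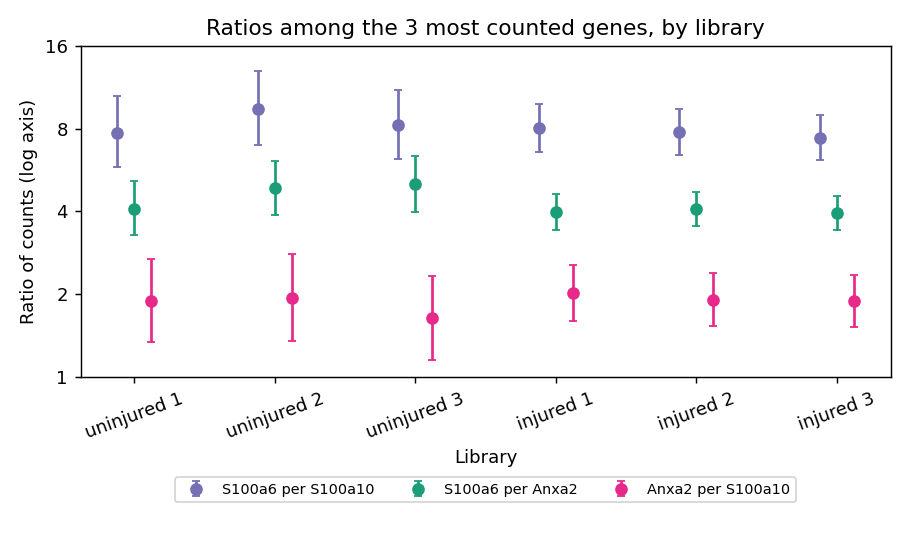
Ratio of counts (vertical log axis) between pairs of the 3 most counted genes in each of the 6 libraries (horizontal axis), with 95% exact intervals for counting error as bars. Anxa2 per S100a10 lay between 1.64 and 2.02, and the intervals of the groups overlap in each pair.

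S100a11, a calcium sensor and partner of Anxa1, had the highest ratio of the 8 genes with counts in both groups, although its interval overlapped that of S100a4. It was counted 0, 0 and 2 times in uninjured libraries and 28, 39 and 36 times in injured libraries. Its level was 5.73 CPM (0.694 to 20.7) in uninjured and 162 CPM (132 to 197) in injured DRG. The ratio was 28.3, and its interval of 7.64 to 237 reflects the 2 uninjured counts. Both uninjured counts came from the third library. Without it the ratio against the floor was 12.6, and without the first or second uninjured library the ratio was 18.9.

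S100a4, also known as Fsp1, encodes a calcium sensor linked to cell motility and often used as a marker of fibroblasts. It had 0, 0 and 1 counts without injury and 7, 7 and 14 with injury. Its level was 2.87 CPM (0.0725 to 15.96) in uninjured and 44.1 CPM (29.3 to 63.8) in injured DRG, a ratio of 15.4 (2.55 to 630). The width of the interval comes from the single uninjured count, in the third library. Without that library the ratio against the floor was 3.42, and without the first or second uninjured library the ratio was 10.3. The third injured library held as many counts as the other two together.

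S100a4 and S100a6 lie close together in the S100 cluster, with S100a5 between them in the RefSeq table, and S100a10 and S100a11 lie near each other farther along the same chromosome. Neighbours had unlike ratios. S100a6 was 1.18-fold and S100a4 15.4-fold higher, with intervals that did not overlap, and the same held for S100a10 at 1.29-fold and S100a11 at 28.3-fold.

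Lgals1 encodes galectin-1, known in nerve for promoting axon regrowth. It was counted 3, 11 and 9 times in uninjured libraries and 52, 54 and 59 times in injured libraries. The first uninjured library was low and the injured libraries lay close together. Its level was 65.9 CPM (41.8 to 98.9) in uninjured and 260.0 CPM (222 to 303) in injured DRG. The ratio was 3.95 (2.54 to 6.40), which 5.73% of the tested genes exceeded. Without the first uninjured library the ratio was 3.03, and without the second it was 5.04.

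Lgals3 encodes galectin-3, also called Mac-2, a protein abundant in activated macrophages. It had 10, 17 and 11 counts without injury and 32, 22 and 32 with injury. Its level was 109 CPM (77.0 to 149) in uninjured and 136 CPM (108 to 167) in injured DRG. The ratio of 1.24 had an interval of 0.840 to 1.87, and the libraries of the groups overlapped. The gene was called under 0 of the 16 alternatives. At this depth, ratios within that interval were compatible with the gene's counts. The interval did not overlap that of Lgals1, so the 2 galectins differed in ratio by more than counting error of reads.

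**Figure D3:**
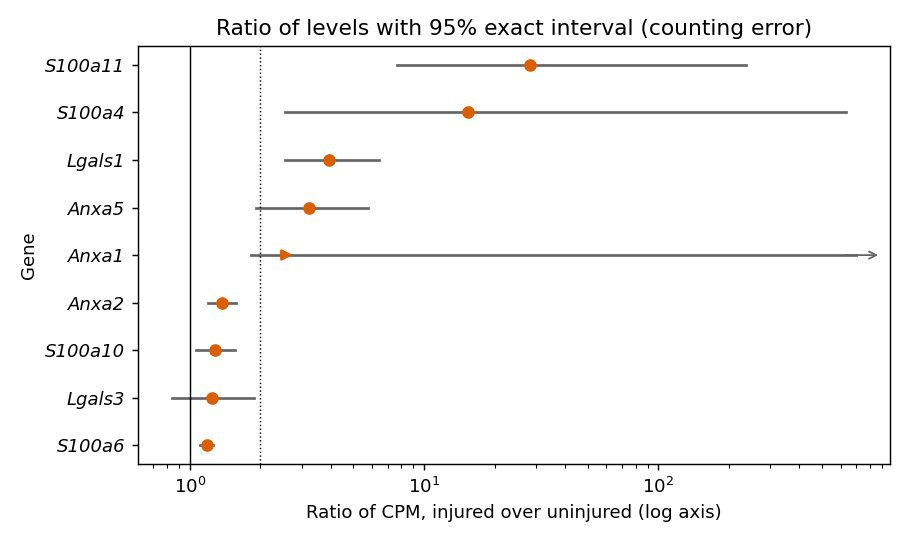
Ratio of injured to uninjured CPM (horizontal log axis) of the 9 genes, with 95% exact intervals for counting error as lines; the solid line marks 1 and the dotted line 2, and the triangle with an arrow is the lower bound of Anxa1. S100a6, Lgals3, S100a10 and Anxa2 lie between 1.18 and 1.37, and Lgals1, S100a4 and S100a11 have intervals wholly above 2.

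From low to high, the ratios ran from S100a6, Lgals3, S100a10 and Anxa2 to Anxa5, Lgals1, S100a4 and S100a11. Neighbours in this order had overlapping intervals, except Anxa2 and Anxa5, where the interval of Anxa2 ended at 1.58 and that of Anxa5 began at 1.92. Anxa1, known by its bound alone, has no place in the order. The genes with high ratios had few uninjured counts, from 0 to 23, and those at or below 1.37 had 38 to 1312. Zero or few counts were likelier in the uninjured group, which was sequenced less deeply. Leaving out injured reads at random to equal depth, a setting added once the data were known, again gave 5 genes at least 2-fold higher. Thinning keeps the expected ratios and the uninjured counts as they were. That number therefore says nothing of the lower uninjured depth. The 10 most abundant genes of the table took 13.1% of counts without injury and 7.26% with injury, which moves the CPM of other genes. In the edgeR fit, whose TMM factors allow for such a shift, the log2 ratio was 0.07 lower at the median of the genes tested. That fit also took its totals over the genes tested only, so the 0.07 is not of TMM alone. In it the 7 tested genes ranged from 0.17 for S100a6 to 4.58 for S100a11, whose log2 ratio of CPM was 4.82. With library totals in place of TMM factors the fit gave 4.68 for S100a11.

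**Figure D4:**
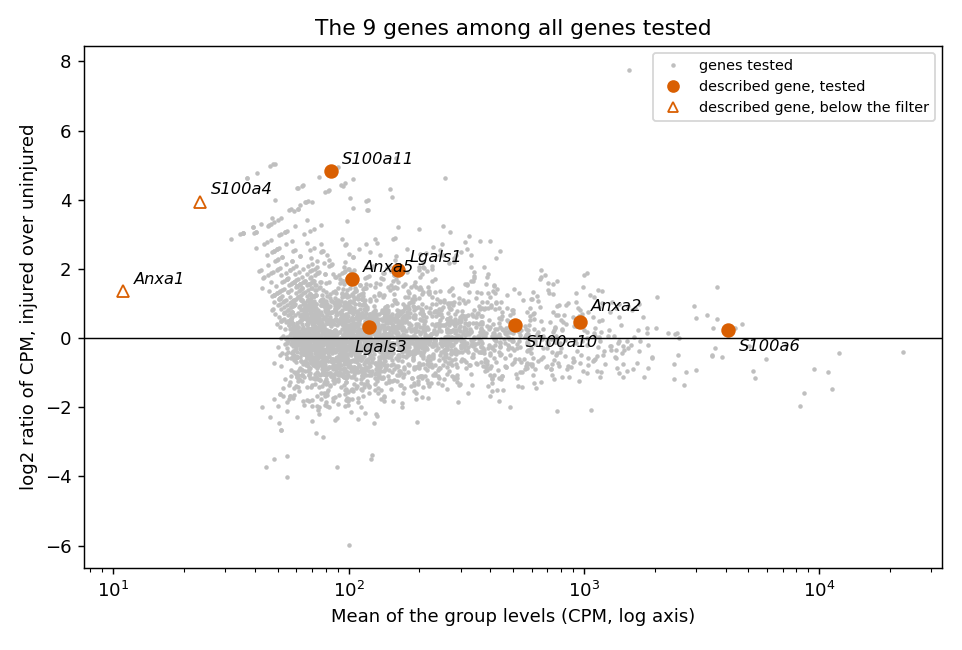
log2 ratio of injured to uninjured CPM (vertical axis) against the mean of the group levels in CPM (horizontal log axis) for the 3158 genes tested (grey points, with 3 counts in place of 0) and the 9 genes (orange; open triangles for Anxa1 and S100a4, below the filter). S100a11 lies at the upper edge of the grey points, and S100a6, Anxa2, S100a10 and Lgals3 lie near 0.

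The promoters of S100a11 and Anxa2 are shown because they hold TGAGTCA, the motif bound by AP-1 factors such as Jun, which are known to act in injured sensory neurons. The motif was chosen after the promoters and ratios were seen. It was searched on both strands (TGAGTCA or TGACTCA) from 250 bases before to 50 after the annotated start. The 250 bases before the start are printed with the motif in capitals, from RefSeq, build GRCm38.p6, plus strand.
S100a11, chr3:93520246-93520495: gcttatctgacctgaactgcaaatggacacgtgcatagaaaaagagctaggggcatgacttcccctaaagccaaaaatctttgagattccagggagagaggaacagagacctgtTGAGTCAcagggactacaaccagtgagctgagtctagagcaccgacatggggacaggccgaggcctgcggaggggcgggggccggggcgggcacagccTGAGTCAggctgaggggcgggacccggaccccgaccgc
Anxa2, chr9:69453433-69453682: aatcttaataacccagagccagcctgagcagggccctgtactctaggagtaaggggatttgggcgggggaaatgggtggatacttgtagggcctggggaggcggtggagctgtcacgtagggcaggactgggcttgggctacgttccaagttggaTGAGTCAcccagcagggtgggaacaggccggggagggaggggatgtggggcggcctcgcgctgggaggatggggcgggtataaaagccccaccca
S100a11 held the motif at 2 places and Anxa2 at 1, and 0 of the other 5 promoters held it. Of all 32851 promoter entries 5.20% held it, and 0.222% held it at least 2 times. The genes with the motif had ratios of 28.3 and 1.37. TATAAA, searched on both strands (TATAAA or TTTATA) in the same windows, was in 3 of the 7, those of Anxa1, Anxa2 and S100a4, and in 13.6% of all entries. A match is a description of the letters and does not show that a factor binds there.

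Genes were ranked by the correlation of log2(CPM + 1) with that of the 9 genes' summed CPM over the 6 libraries, among the 3151 other genes tested. S100a6 gave 71.6% of that sum without injury and 64.3% with injury, so likeness to the sum is mostly likeness to S100a6. The highest were ENSMUSG00000046722 and ENSMUSG00000003518, given by identifier, with r of 0.999 and 0.998. ENSMUSG00000046722 had 6, 7 and 7 counts without injury and 18, 21 and 21 with injury, and ENSMUSG00000003518 had 4, 5 and 5 and 15, 18 and 17. Their ratios were 1.65 (0.980 to 2.89) and 1.96 (1.07 to 3.85), against 1.32 for the 9 genes, so a high r does not mean a rise of equal size. The 6 points are libraries of 2 samples, and 14 genes reached at least 0.99.

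Some counts are uncertain because estimation shares reads among similar or overlapping transcripts. The RefSeq table lists the pseudogenes S100a11-ps and Lgals1-ps1 and a long noncoding RNA, Gm30368, that overlaps Lgals1. The strand setting of the counting is not given in the sources used here. The part of these in the ratios of S100a11 and Lgals1 was not tested.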

How the data were processed

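The values the authors deposited are estimated counts for Ensembl gene identifiers, without normalization; minimap2 and Salmon with the mouse build GRCm39 are named per the submitters' processing notes, while versions, annotation and filters were not stated there. Per the labels' protocols, RNA of LARP1 immunoprecipitates was made into libraries with a nanopore cDNA-PCR barcoding kit. All values were whole, so rounding changed none. Groups and replicate numbers came from the sample titles. The genes and lists were chosen with earlier results of these data known, and the 9 genes' symbols came with the selection rule. All 9 were named, with the 2 most alike genes added. No table used here pairs the other identifiers with symbols, so other family members and cell markers were not analysed here.

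CPM, exact intervals and ratios were computed from counts summed by group, with 3 counts in place of 0. edgeR 4.0.16 (R 4.3.3) fitted the 6 libraries with TMM factors and filterByExpr, at a Benjamini-Hochberg threshold of 0.05; p-values of single genes are not given, because each group counts as 1 sample. The alternatives comprised limma-voom with limma 3.58.1, DESeq2 1.42.0, different size factors and filters, a replicate block, and fits without 1 library. Assumed coefficients of variation on summed counts and thinning were added after the data were seen. The depth of 116186 to 211879 counts per library limits genes with few counts.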

Additional observations from a re-analysis of the deposited data

How the results depend on the processing

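Of the 112 values of the 7 tested genes under 16 alternatives, 0 changed direction and 101 kept their side of the threshold; 7 fell below it and 4, all of S100a10, rose past it. The number of the 9 genes called higher, 5, stayed within 1.5 times except without a filter (8 called, with Anxa1 and S100a4, which the filter had removed, and S100a10, which had been tested), with an assumed coefficient of variation of 0.2 (3) and with 0.4 (1). Over all genes, 786 higher and 699 lower calls became 305 and 176 with 0.2 and 42 and 5 with 0.4; the assumed spread exceeds the 3.57% measured between libraries. Leaving out 1 library gave 638 to 836 higher and 582 to 756 lower calls over all genes, 4 to 6 of the 9 called higher and 0 lower, 4 to 5 of the 9 at least 2-fold higher (Anxa1's bound moved below 2), and a ratio of the summed shares of 1.29 to 1.35. The replicate block gave 750 higher and 677 lower calls and 5 of the 9 higher. Between libraries of equal number, deviations from the group mean had correlations of 0.0389, -0.0063 and -0.0506. Such deviations were nearly all counting noise, so these values cannot show whether equal numbers mark a pairing. Depth limits Anxa1, S100a4 and S100a11, which had 0 to 2 uninjured counts. DESeq2 called S100a4 and not Anxa1.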
